A study of Bos taurus with 12 samples.

Results

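Calcineurin and the calcium/calmodulin-dependent kinase CaMKII are the enzymes through which raised calcium is read as a growth signal in heart muscle, and 10 genes of these routes were followed in the right ventricle of cattle living at high altitude. They are the calcineurin subunits PPP3CA, PPP3CB and PPP3R1, the calcineurin regulators RCAN1 and RCAN2, the transcription factors NFATC1, NFATC3 and NFATC4, and the kinase genes CAMK2D and CAMK2G. They were taken by gene symbol from a table of 24616 genes, in which each of the 10 symbols stands on 1 row. Of the 10 genes, 9 passed the filter on low values (at least 1 RPKM in at least 3 libraries), as did 11374 genes in all. NFATC1 did not pass, with 1 RPKM or more in 2 libraries, and is described by its values.

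The right ventricle drives blood through the lungs, and its RNA had been sequenced in 12 wild-type Angus steers, each library from a different animal. All were castrated males that had lived under the chronic low oxygen of a site at 2170 m and were 13 to 15 months old at slaughter, so no group was kept at low elevation. From repeated catheter measurements of pulmonary arterial pressure (PAP) and from clinical signs, the submitters had classed 6 animals as low PAP, 3 as healthy with pulmonary hypertension (PH-healthy) and 3 as hypertensive and in right heart failure (PH-failure). Expression is given as RPKM, reads scaled by exon length and by the mapped reads of the library, and group values are mean ± SD (low PAP n = 6, PH-healthy n = 3, PH-failure n = 3). Changes are differences of mean log2(RPKM + 1) with their SE, called log2 fold changes, a scale on which genes of low level change less than their RPKM does. Adjusted p-values are from limma, Benjamini-Hochberg adjusted over all 11374 tested genes, with a threshold of 0.05.

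As background, calcineurin is a phosphatase made of a catalytic A subunit and a regulatory B subunit, and it is switched on by calcium and calmodulin. It removes phosphate from NFAT proteins in the cytoplasm, which then enter the nucleus and, with partners such as GATA4 and MEF2 factors, drive genes of muscle growth. Kinases such as GSK3B and DYRK1A put the phosphate back. RCAN proteins bind calcineurin and can restrain it, and in rodents a short transcript of RCAN1 is itself driven by NFAT, so that its level is widely used as a readout of calcineurin activity. CaMKII, mainly its delta form in heart muscle, phosphorylates calcium-handling proteins and class II histone deacetylases, which releases MEF2 factors.

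The libraries held 14739237 to 31090198 mapped reads, with PH-failure replicate 1 the shallowest, and the 10 genes had between 37 reads (NFATC1) and 14463 reads (RCAN1) in a library. Over all tested genes the median log2 fold change against low PAP was 0.21 in PH-failure and 0.18 in PH-healthy. Median-ratio scaling moved these medians to 0.0066 and -0.00056, and quantile normalization to -0.03 and -0.04. The 8 cardiomyocyte markers summed to 57022 to 74014 RPKM in low PAP, 63405 to 71352 in PH-healthy and 42931 to 69833 in PH-failure, with PH-failure replicate 3 the lowest; of the 8, 2 were higher and 1 lower in PH-healthy, and 1 higher and 2 lower in PH-failure. In the same 3 groups the 8 endothelial markers summed to 92.6 to 163, 155 to 181 and 173 to 256 RPKM, and 4 of the 8 rose in each PH group. The 8 fibroblast markers summed to 604 to 884, 670 to 1206 and 935 to 1475 RPKM, with 4 of 8 higher in PH-healthy and 5 of 8 in PH-failure. The 8 macrophage and monocyte markers summed to 41.7 to 64.8, 60.1 to 86.8 and 58.1 to 170 RPKM, with 3 of 8 and 6 of 8 higher. The 6 smooth muscle and pericyte markers summed to 223 to 323, 237 to 265 and 237 to 431 RPKM, with 1 higher and 1 lower in PH-healthy and 3 higher and 1 lower in PH-failure. The 6 neuron and Schwann cell markers summed to 213 to 289, 149 to 187 and 120 to 260 RPKM, PH-healthy lying wholly below low PAP, with 1 gene tested, which was not called. T and NK cell markers summed to 17.7 to 25.1 RPKM in low PAP and to 10.3 to 19.7 RPKM over the PH libraries, with 1 and 2 of 7 tested lower. The 6 adipocyte markers summed to 29.8 to 261, 19.0 to 35.7 and 43.7 to 1061 RPKM, with PH-failure replicate 3 the highest and none called. The 4 atrial muscle markers present in the table summed to 3085 to 6775, 539 to 876 and 425 to 1837 RPKM, with BMP10 at 0 in every group and 1 of 3 tested lower in each PH group. In these whole-tissue libraries fewer cells of a type and less RNA per cell cannot be told apart, and the part of these markers in the results that follow was not tested.

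Of the 9 tested genes, 6 rose and none fell in PH-failure, where 28% of all tested genes rose and 5.79% fell (33.8% in either direction). The same 6 rose in PH-healthy, where 26.6% of all tested genes rose and 8.15% fell (34.7% in either direction). They were RCAN1, RCAN2, CAMK2G, PPP3CA, PPP3R1 and NFATC3. Both comparisons use the same 6 low-PAP animals, so they are not independent of each other. The median log2 fold change of the 9 genes was 0.56 in PH-failure and 0.57 in PH-healthy. The same median over all tested genes was 0.21 and 0.18. In 4 of the 10 genes (PPP3R1, RCAN1, RCAN2 and CAMK2G) every library of each PH group lay above every low-PAP library. Of all tested genes 13.8% showed this pattern for both PH groups at once, 18.6% for PH-failure taken by itself and 25% for PH-healthy taken by itself. After quantile normalization 3 of the 9 genes rose in PH-failure (RCAN1, RCAN2 and CAMK2G), where 9.96% of all tested genes rose and 12.5% fell. In PH-healthy 5 of the 9 rose after it, all but NFATC3, where 12.5% of all tested genes rose and 14.3% fell. Median-ratio scaling left the same 3 and 5 genes called. With it, of all 11374 tested genes, 1530 rose and 1681 fell in PH-failure, and 1824 rose and 1861 fell in PH-healthy. Limma-voom on recovered reads, an alternative chosen after seeing the data, left the same 3 in PH-failure and 4 in PH-healthy, where PPP3R1 was lost (adjusted p = 0.0518). In that fit 1665 of the 11374 genes rose and 1682 fell in PH-failure, and 1904 rose and 1808 fell in PH-healthy. The planned limma-voom fit with TMM factors, seen before it was replaced, had kept PPP3R1 in PH-healthy, and its values are not given here.

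**Figure D1:**
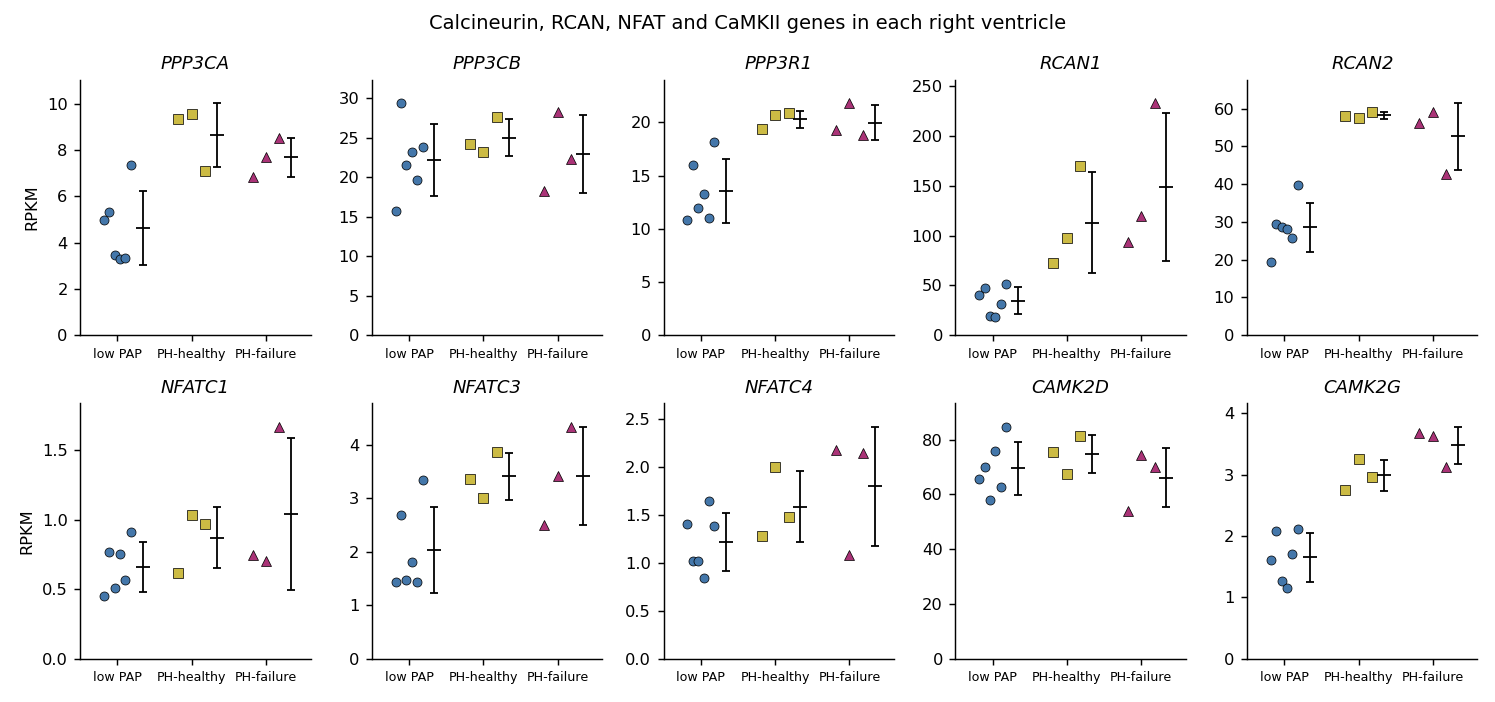
RPKM (vertical axes, linear and starting at 0) of the 10 genes in each library, by group; circles are the 6 low-PAP, squares the 3 PH-healthy and triangles the 3 PH-failure animals, in order of replicate number, and bars are mean ± SD. RCAN1, RCAN2, PPP3R1 and CAMK2G have no PH library within the low-PAP range, while PPP3CB and CAMK2D overlap across all 3 groups.

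RCAN1 had the largest change of the 10 genes in both PH groups. RCAN1 (ENSBTAG00000020035) lies on chromosome 1 at 351707 to 362907, in the coordinates of the table, for which the sources used here name no genome build. It encodes regulator of calcineurin 1, which binds the catalytic subunit. In low PAP its lowest, median and highest values were 18.5, 36.0 and 51.3 RPKM. The PH-healthy replicates 1 to 3 were at 72.6, 97.1 and 169.6 RPKM, and the PH-failure replicates 1 to 3 at 93.9, 119.9 and 233 RPKM. All 6 PH libraries were thus above the low-PAP range, and the spread was wide in each PH group, with replicate 3 the highest in both. The group means were 34.7 ± 13.9, 113 ± 50.4 and 149 ± 74.1 RPKM, a 3.26-fold ratio of means for PH-healthy and 4.29-fold for PH-failure. The log2 fold change was 1.69 ± 0.38 in PH-healthy (limma adjusted p = 0.00671) and 2.06 ± 0.38 in PH-failure (limma adjusted p = 0.00343). Without PH-failure replicate 3 the PH-failure value was 1.69 (limma adjusted p = 0.0212), and over all 19 alternative settings the adjusted p reached at most 0.0295 in PH-failure and 0.0421 in PH-healthy. Libraries of both name series (55 and 56 in the labels, sequenced in lanes 4 and 5) showed the rise: the PH-failure difference was 2.84 in series 55, with 1 PH-failure library, and 1.66 in series 56, with 2. The PH-healthy difference was 1.98 in series 55, with 2 PH-healthy libraries, and 1.12 in series 56, with 1. The table gives 1 value for the whole gene, so the short and long transcripts of RCAN1 were not separated.

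RCAN2, the paralog of RCAN1 that is known for expression in brain, heart and skeletal muscle, rose by a smaller amount and with less spread. RCAN2 (ENSBTAG00000009302) lies on chromosome 23 at 19437557 to 19667184. Its low-PAP values ran from 19.5 through a median of 28.4 to 39.7 RPKM. The PH-healthy replicates were at 57.9, 57.4 and 59.2 RPKM and the PH-failure replicates at 56.2, 59.2 and 42.6 RPKM. The 3 PH-healthy animals were nearly alike, and the lowest PH library, PH-failure replicate 3, was still above the highest low-PAP library. The means were 28.5 ± 6.58, 58.2 ± 0.902 and 52.7 ± 8.84 RPKM. On the log2 scale the change was 1.03 ± 0.17 in PH-healthy (limma adjusted p = 0.00182) and 0.88 ± 0.17 in PH-failure (limma adjusted p = 0.00489). Within series 55 and 56 the PH-failure differences were 0.45 and 1.16, and the PH-healthy differences 0.90 and 1.16. PH-failure replicate 3, the only failure library of series 55, was therefore the highest of all libraries for RCAN1 and the lowest PH library for RCAN2. In low PAP the ratio of RCAN2 to RCAN1 was 0.948 ± 0.440 (0.483 to 1.52). It was 0.579 ± 0.225 in PH-healthy (0.349 to 0.798) and 0.425 ± 0.216 in PH-failure (0.183 to 0.598), and these ranges overlap.

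Of the calcineurin subunits, PPP3R1 and PPP3CA rose in both PH groups and PPP3CB did not pass the test in either. PPP3R1 (ENSBTAG00000010619, chromosome 11, 66582635 to 66642276) encodes the regulatory B subunit, which binds calcium. Its low-PAP values were 10.8 at the lowest, 12.6 at the median and 18.2 RPKM at the highest. In PH-healthy the replicates were at 19.4, 20.7 and 20.9 RPKM and the PH-failure replicates at 19.3, 21.8 and 18.8 RPKM. Low PAP did not overlap either PH group, though low-PAP replicate 6 came within 1 RPKM of the lowest PH library. The means were 13.5 ± 2.98, 20.3 ± 0.816 and 19.98 ± 1.61 RPKM. The fitted log2 fold change was 0.57 ± 0.15 in PH-healthy (limma adjusted p = 0.0136) and 0.55 ± 0.15 in PH-failure (limma adjusted p = 0.0177). The PH-failure call was lost after quantile normalization (0.35, limma adjusted p = 0.0625), median-ratio scaling (0.31, adjusted p = 0.0890), limma-voom (adjusted p = 0.0987) and without PH-failure replicate 2 (limma adjusted p = 0.0668). The PH-healthy call was lost with limma-voom (adjusted p = 0.0518) and without PH-healthy replicate 3 (limma adjusted p = 0.0508).

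PPP3CA (ENSBTAG00000016005, chromosome 6, 24812681 to 25136247) encodes the alpha form of the catalytic subunit. In low PAP it ran from 3.30 through a median of 4.23 to 7.38 RPKM. PH-healthy animals 1 to 3 were at 9.34, 9.59 and 7.09 RPKM and the PH-failure replicates at 6.86, 7.70 and 8.54 RPKM. The overlap came from 1 low-PAP library, replicate 6, which lay above PH-healthy replicate 3 and PH-failure replicate 1. The means were 4.63 ± 1.61, 8.67 ± 1.38 and 7.70 ± 0.838 RPKM. The log2 fold change was 0.81 ± 0.20 in PH-healthy (limma adjusted p = 0.0107) and 0.67 ± 0.20 in PH-failure (limma adjusted p = 0.0255). The PH-failure call depended on the scaling, with limma adjusted p = 0.113 after quantile normalization, 0.0669 after median-ratio scaling and 0.0579 with limma-voom. It was also lost without low-PAP replicate 3 (limma adjusted p = 0.0520), low-PAP replicate 4 (0.0504), PH-failure replicate 2 (0.0674) or PH-failure replicate 3 (0.0991), and the PH-healthy call without PH-healthy replicate 1 (0.0501).

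PPP3CB (ENSBTAG00000019525, chromosome 28, 29613179 to 29630076) encodes the beta form of the catalytic subunit, the form whose loss in mice blunts cardiac hypertrophy. It was at 15.8, 22.4 and 29.4 RPKM at the lowest, median and highest low-PAP library. The PH-healthy replicates were at 24.2, 23.1 and 27.6 RPKM and the PH-failure replicates at 18.3, 28.2 and 22.2 RPKM. All PH values were within the low-PAP range. On the log2 scale the change was 0.18 in PH-healthy (95% interval -0.19 to 0.56, limma adjusted p = 0.427) and 0.05 in PH-failure (-0.33 to 0.42, limma adjusted p = 0.851). The upper ends of these intervals lie below the 0.81 and 0.67 estimated for PPP3CA, though the difference between the genes was not tested. The direction of PPP3CB turned under other scalings, to -0.20 in PH-failure and -0.03 in PH-healthy after median-ratio scaling.

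Since RPKM is per length, the levels of the catalytic paralogs can be set side by side, as far as the exon lengths behind it are complete. The recovered exon length was 2354 bases for PPP3CA and 1108 for PPP3CB, and whether these cover the whole transcripts was not checked. How reads that match several paralogs were counted is not stated either, so the ratios and shares are uncertain to that extent. In low PAP the RPKM of PPP3CB was 5.17 ± 1.61 times that of PPP3CA (3.16 to 7.05). The ratio was 2.97 ± 0.809 in PH-healthy (2.41 to 3.89) and 2.98 ± 0.591 in PH-failure (2.61 to 3.66), so the highest PH values reached into the low-PAP range. The third catalytic gene, PPP3CC, had the highest level of the catalytic genes. PPP3CC was at 32.7 ± 4.19 RPKM in low PAP, 57.7 ± 3.91 in PH-healthy and 61.6 ± 16.0 in PH-failure. It rose by 0.81 ± 0.15 in PH-healthy (limma adjusted p = 0.00277) and 0.87 ± 0.15 in PH-failure (limma adjusted p = 0.00263), and was called in all 19 alternative settings in both. Of the summed RPKM of the 3 catalytic genes, PPP3CC made up 55.1 ± 3.63% in low PAP (48.4 to 58.9%), 63.1 ± 2.22% in PH-healthy (60.6 to 64.4%) and 66.4 ± 5.66% in PH-failure (60.8 to 72.1%). PPP3CB made up 37.2 ± 4.31%, 27.4 ± 3.45% and 25.2 ± 5.34%. The ranges of the PPP3CC share in the PH groups did not overlap that of low PAP, and the shares are given as a description, with no test.

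Of the NFAT genes, NFATC3 rose in both PH groups by a call that depended on the setting, and NFATC4 did not pass the test. NFATC3 (ENSBTAG00000004368, chromosome 18, 35640708 to 35732176) was at 1.43, 1.64 and 3.35 RPKM at the lowest, median and highest low-PAP library. In PH-healthy the replicates were at 3.36, 3.00 and 3.87 RPKM and the PH-failure replicates at 2.51, 3.42 and 4.34 RPKM. Low-PAP replicates 2 and 6 lay at 2.69 and 3.35 RPKM, inside the PH range, while the other low-PAP libraries were below it. The means were 2.03 ± 0.807, 3.41 ± 0.437 and 3.42 ± 0.916 RPKM. The fitted log2 fold change was 0.57 ± 0.20 in PH-healthy (limma adjusted p = 0.0419) and 0.56 ± 0.20 in PH-failure (limma adjusted p = 0.0463). Under the 19 alternative settings the PH-healthy call was lost in 14 and the PH-failure call in 15, with log2 fold changes of 0.27 and 0.24 after quantile normalization (limma adjusted p = 0.233 and 0.303). Leaving out any 1 library other than low-PAP replicates 2 and 6 and PH-failure replicate 1 ended the PH-failure call, with limma adjusted p of 0.0561 to 0.198 in those libraries. For PH-healthy the same held for any library other than these 3 and PH-failure replicate 3, with limma adjusted p of 0.0526 to 0.140.

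NFATC4 (ENSBTAG00000006366, chromosome 10, 20632356 to 20639714), known in mice as a calcineurin target that drives hypertrophy, had 61 to 144 reads in a library. Its lowest, median and highest low-PAP values were 0.847, 1.20 and 1.65 RPKM. PH-healthy animals 1 to 3 were at 1.28, 2.00 and 1.48 RPKM and the PH-failure replicates at 2.18, 1.08 and 2.14 RPKM. PH-healthy replicate 2 and PH-failure replicates 1 and 3 lay above the low-PAP range and the other PH libraries within it. The log2 fold change was 0.22 in PH-healthy (95% interval -0.13 to 0.58, limma adjusted p = 0.304) and 0.32 in PH-failure (-0.04 to 0.67, limma adjusted p = 0.141). Without PH-failure replicate 2 the PH-failure value was 0.52 and passed the test (limma adjusted p = 0.0403). NFATC1 (ENSBTAG00000000656, chromosome 24, 1018252 to 1099817), which is best known from heart valve formation, had 37 to 153 reads in a library. It ran from 0.455 through a median of 0.659 to 0.913 RPKM in low PAP. The PH-healthy replicates were at 0.620, 1.03 and 0.967 RPKM and the PH-failure replicates at 0.748, 0.706 and 1.67 RPKM. PH-failure replicate 3 was the highest and the other failure libraries lay within the low-PAP range. In the fit without a filter, its log2 fold change of 0.17 in PH-healthy had a limma adjusted p = 0.445 and that of 0.27 in PH-failure a limma adjusted p = 0.208.

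The calls of the CaMKII genes parted, with CAMK2G higher in both PH groups and the far more abundant CAMK2D not past the test in either. CAMK2G (ENSBTAG00000012667, chromosome 28, 29878539 to 29930559) encodes the gamma form of the kinase and lies 248463 bases from PPP3CB. It was at 1.15, 1.66 and 2.12 RPKM at the lowest, median and highest low-PAP library, with 68 to 211 reads in a library. In PH-healthy the replicates were at 2.75, 3.26 and 2.96 RPKM and the PH-failure replicates at 3.68, 3.63 and 3.13 RPKM. Every PH library lay above every low-PAP library, while the 2 PH groups overlapped. The means were 1.65 ± 0.403, 2.99 ± 0.253 and 3.48 ± 0.304 RPKM. On the log2 scale the change was 0.60 ± 0.13 in PH-healthy (limma adjusted p = 0.00664) and 0.77 ± 0.13 in PH-failure (limma adjusted p = 0.00283). Quantile normalization gave 0.30 (limma adjusted p = 0.0488) and 0.44 (limma adjusted p = 0.0134), and the call held in all 19 alternative settings in both comparisons. Within series 55 and 56 the PH-failure differences were 0.63 and 0.85, and the PH-healthy differences 0.62 and 0.54.

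CAMK2D (ENSBTAG00000014463, chromosome 6, 12965029 to 13272298), the main CaMKII gene of heart muscle, was above 91.9% of tested genes in low PAP. Its lowest, median and highest low-PAP values were 58.1, 67.8 and 84.7 RPKM. PH-healthy animals 1 to 3 were at 75.7, 67.5 and 81.2 RPKM and the PH-failure replicates at 54.0, 74.2 and 70.2 RPKM. Of the PH libraries, PH-failure replicate 1 alone was outside the low-PAP range, below it. The fitted log2 fold change was 0.11 in PH-healthy (95% interval -0.18 to 0.41, limma adjusted p = 0.547) and -0.07 in PH-failure (-0.37 to 0.22, limma adjusted p = 0.696). Median-ratio scaling moved these values down, to -0.11 and -0.33 (limma adjusted p = 0.564 and 0.0898), while quantile normalization gave 0.16 and -0.08. The interval for PH-failure lies below that of CAMK2G (0.48 to 1.06), while in PH-healthy it overlaps that of CAMK2G (0.31 to 0.89). The difference between the genes was not tested.

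Within the CAMK2 family, CAMK2D made up 83.5 ± 1.58% of the summed RPKM in low PAP (81.8 to 86.2%), 77.6 ± 1.94% in PH-healthy (76.3 to 79.8%) and 74.8 ± 3.08% in PH-failure (73.0 to 78.3%). CAMK2G made up 1.99 ± 0.394%, 3.13 ± 0.482% and 4.02 ± 0.871%. The second gene of the family by level was CAMK2B, at 10.99 ± 1.28 RPKM in low PAP, 17.5 ± 2.88 in PH-healthy and 17.6 ± 4.09 in PH-failure. CAMK2B rose by 0.62 ± 0.15 in PH-healthy (limma adjusted p = 0.00871) and 0.61 ± 0.15 in PH-failure (limma adjusted p = 0.0103), calls that were lost without PH-healthy replicate 3 (limma adjusted p = 0.0506) and without PH-failure replicate 3 (0.0565). Its share was 13.3 ± 0.992%, 18.1 ± 1.84% and 19.9 ± 3.28%. In each PH library the CAMK2D share was below, and the CAMK2B and CAMK2G shares above, the low-PAP range. The sources used here do not say how reads that match several paralogs were counted, so the shares are uncertain to that extent.

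**Figure D2:**
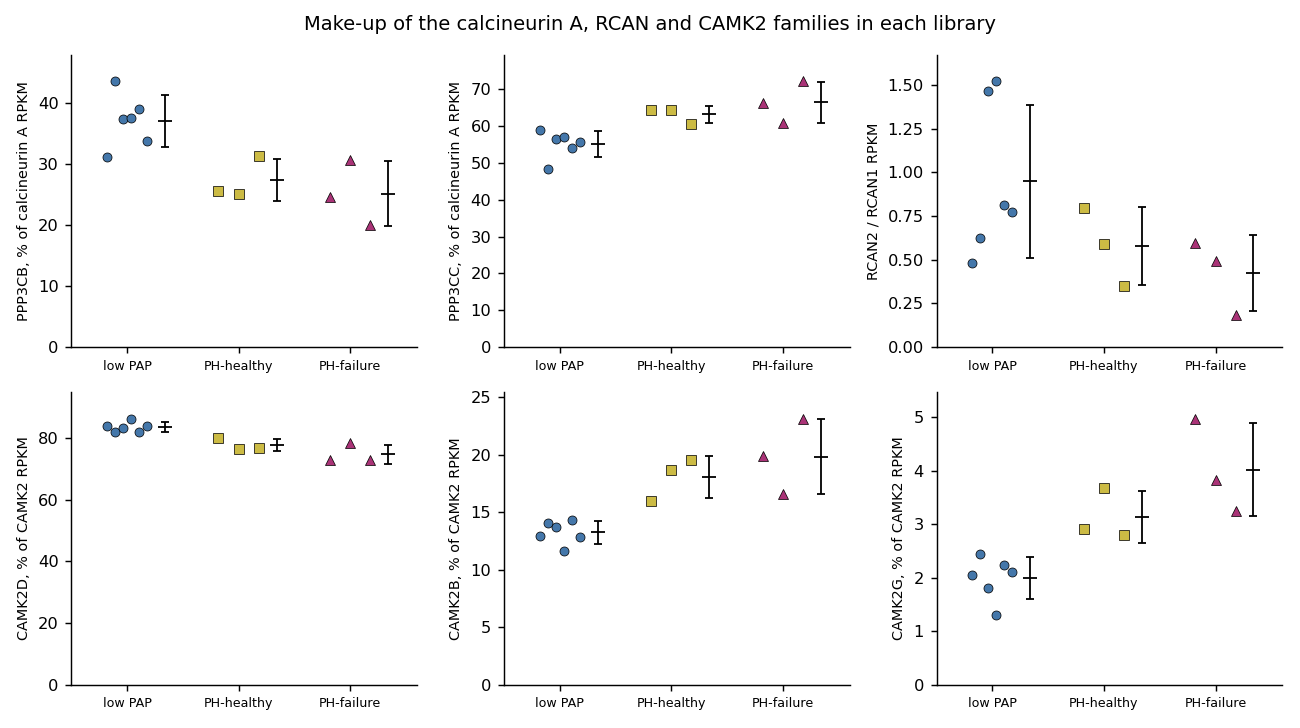
Shares (percent of summed RPKM; PPP3CA, PPP3CB and PPP3CC for calcineurin A, CAMK2A, CAMK2B, CAMK2D and CAMK2G for CAMK2) and the RCAN2 to RCAN1 ratio in each library, by group, on linear axes from 0. Points are animals and bars mean ± SD; the CAMK2D share is 81.8 to 86.2% in low PAP and 73.0 to 79.8% in the PH groups.

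**Figure D3:**
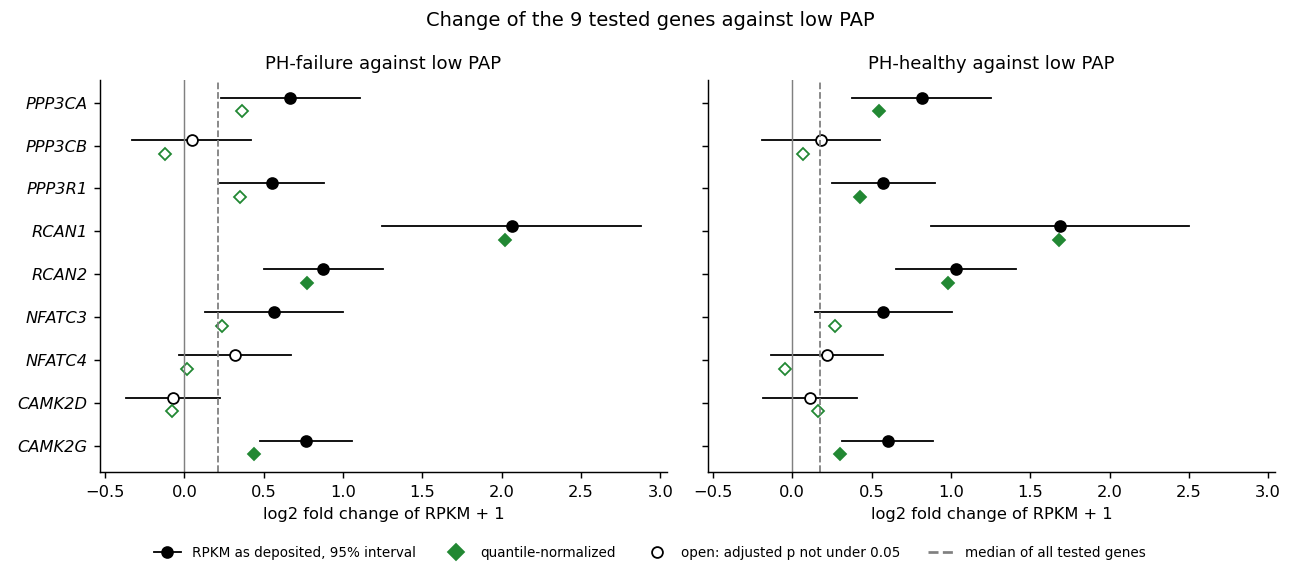
Log2 fold change of RPKM + 1 (horizontal axis) of the 9 tested genes against low PAP, with 95% intervals (circles) and after quantile normalization (diamonds); open symbols did not pass the adjusted p of 0.05 and the dashed line is the median of all tested genes, 0.21 in PH-failure and 0.18 in PH-healthy. RCAN1, RCAN2 and CAMK2G are filled in both panels under both scalings.

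By level in low PAP, the order of the genes was CAMK2D (69.5 ± 9.62 RPKM), RCAN1 (34.7 ± 13.9), RCAN2 (28.5 ± 6.58), PPP3CB (22.2 ± 4.56), PPP3R1 (13.5 ± 2.98), PPP3CA (4.63 ± 1.61), NFATC3 (2.03 ± 0.807), CAMK2G (1.65 ± 0.403), NFATC4 (1.22 ± 0.303) and NFATC1 (0.660 ± 0.178). RCAN1, RCAN2 and PPP3CB lay within their spread of each other, as did NFATC3, CAMK2G and NFATC4. In PH-failure RCAN1 had the highest mean of the 10 genes, above CAMK2D at 66.1 ± 10.7 RPKM, with all 3 of its libraries above the highest CAMK2D library of that group.

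The comparison of PH-failure with PH-healthy asks whether the 10 genes differ between hypertensive animals with and without heart failure. None of the 9 tested genes passed the test, and none had an unadjusted p under 0.05 (limma). Limma-voom also called 0 of the 9. Of all tested genes, 1 was called (0.00879%), lower in PH-failure, and 2.71% had an unadjusted p under 0.05. RCAN1 had the widest interval, with a log2 fold change of 0.38 (95% interval -0.57 to 1.32), and it was -0.00087 without PH-failure replicate 3. For CAMK2G it was 0.17 (-0.17 to 0.50), for CAMK2D -0.18 (-0.53 to 0.16) and for RCAN2 -0.16 (-0.59 to 0.28). For PPP3CA it was -0.15 (-0.65 to 0.36), for PPP3R1 -0.02 (-0.40 to 0.35) and for NFATC3 -0.01 (-0.51 to 0.49). With 3 animals a side, differences of the sizes inside these intervals are not excluded.

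When both PH groups were set against low PAP in 1 comparison, the same 6 genes rose and none fell, where 37.3% of all tested genes rose and 10.4% fell (47.7% in either direction). In 4 of the 10 genes all 6 PH libraries lay above all low-PAP libraries, as in 13.8% of tested genes. After quantile normalization 5 rose, all but NFATC3 (limma adjusted p = 0.151), where 17% of all tested genes rose and 21.1% fell. The log2 fold changes of the 6 ran from 0.56 ± 0.12 for PPP3R1 (limma adjusted p = 0.00362) to 1.88 ± 0.31 for RCAN1 (limma adjusted p = 0.000758). The median over the 9 tested genes was 0.57, against 0.19 over all tested genes. The authors' deposited table, which compares high with low PAP by a test that the sources used here do not name, lists RCAN1 at 3.64-fold with a false discovery rate of 3.4334e-06. The authors' deposited table lists RCAN2 at 1.81-fold with a false discovery rate of 0.00629. Its RCAN1 means in the authors' deposited table, 32.7 RPKM at low and 118.9 RPKM at high PAP, are not those of the 12 libraries used here (34.7 and 131 RPKM), so its values may rest on other libraries too. The authors' deposited table gives the other 8 genes false discovery rates of 0.846 (PPP3CA) or 1.

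Further genes of the same routes were taken from 6 lists, 79 genes in all, of which 74 are in the table and 63 passed the filter. In PH-failure 26 of the 63 rose (41.3%) and 2 fell, with a median log2 fold change of 0.40, where 28% of all tested genes rose and 5.79% fell, with a median of 0.21. In PH-healthy 26 rose (41.3%) and 1 fell, also with a median of 0.40, where 26.6% of all tested genes rose and 8.15% fell, with a median of 0.18. Quantile normalization left 10 of the 63 higher and 1 lower in PH-failure, where 9.96% of all tested genes were higher and 12.5% lower. In PH-healthy it left 13 higher and 2 lower, where 12.5% of all tested genes were higher and 14.3% lower. The call held in all 19 alternative settings for 6 of the 28 called genes in PH-failure and 11 of the 27 in PH-healthy. Without PH-failure replicate 3, 13 of the genes were called in PH-failure, as were 1540 of all 11374 tested genes.

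Among calcineurin subunits, anchors and regulators (20 listed, 14 tested), 4 rose in PH-failure (28.6%, against 28% of all tested genes) and 3 in PH-healthy (21.4%, against 26.6%), and none fell. These shares of risen genes are near those of all tested genes, of which 5.79% fell in PH-failure and 8.15% in PH-healthy. Beside PPP3CC, HOMER2, a scaffold protein that binds NFAT and competes with calcineurin for it in T cells, was at 19.7 ± 2.58 RPKM in low PAP, 61.4 ± 14.2 in PH-healthy and 55.7 ± 8.46 in PH-failure. HOMER2 rose by 1.58 ± 0.15 (limma adjusted p = 0.000113) and 1.45 ± 0.15 (limma adjusted p = 0.000205). AKAP6, which encodes mAKAP, an anchor that holds calcineurin and kinases at the nuclear envelope of muscle cells, rose from 8.52 ± 3.48 to 23.0 ± 1.83 RPKM in PH-healthy (limma adjusted p = 0.00243) and 18.1 ± 4.98 RPKM in PH-failure (limma adjusted p = 0.0106). HOMER2 and AKAP6 kept their calls in all 19 settings in both comparisons. CIB1, a calcium-binding protein that anchors calcineurin to the muscle membrane, rose by 0.42 in PH-failure (limma adjusted p = 0.0319), a call kept in 10 of 19 settings and lost, among others, without PH-failure replicate 1 or 3. MYOZ2, calsarcin-1, which restrains calcineurin at the Z-disc, was at 2345 ± 571, 2423 ± 408 and 2210 ± 171 RPKM and did not pass the test.

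Among NFAT factors, NFAT kinases and partners (14 listed, 13 tested), 4 rose in each PH group and none fell. The share that rose, 30.8%, is near the 28% and 26.6% of all tested genes in PH-failure and PH-healthy, of which 5.79% and 8.15% fell. JUN, an AP-1 factor that partners with NFAT, was at -0.39 in PH-failure and -0.46 in PH-healthy and did not pass the test, but was called lower after median-ratio scaling (limma adjusted p = 0.0486 and 0.0343) and with limma-voom (0.0443 and 0.0314). GSK3B, whose phosphorylation of NFAT favours export from the nucleus, rose from 3.91 ± 1.25 to 10.1 ± 0.932 RPKM in PH-healthy (limma adjusted p = 0.00215) and 9.32 ± 2.77 RPKM in PH-failure (limma adjusted p = 0.00489), in all 19 settings. DYRK1B and CSNK1A1, further kinases, rose in both groups, by 0.80 and 0.48 in PH-healthy and 0.74 and 0.52 in PH-failure. Those calls were less stable: DYRK1B kept its call in 17 and 13 of 19 settings and CSNK1A1 in 5 and 9. DYRK1A rose in PH-failure (0.79, limma adjusted p = 0.0439, kept in 4 of 19 settings) and NFAT5, the member of the family that calcineurin does not regulate, in PH-healthy (0.76, limma adjusted p = 0.0244, kept in 14 of 19).

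Among CaM kinases and CaMKII inhibitors (11 listed, 6 tested), 3 rose and 1 fell in each PH group, where 28% and 26.6% of all tested genes rose and 5.79% and 8.15% fell in PH-failure and PH-healthy. CAMKK2, which activates other CaM kinases, rose from 8.61 ± 2.57 to 17.9 ± 2.90 RPKM in PH-healthy (limma adjusted p = 0.00508) and 15.8 ± 3.29 RPKM in PH-failure (limma adjusted p = 0.0132), the second call being lost without PH-failure replicate 3 (0.0705). CAMK1 rose by 1.01 and 0.93 (limma adjusted p = 0.00767 and 0.0124) in PH-healthy and PH-failure. The CAMK1 calls were kept in 18 and 17 of 19 settings in PH-healthy and PH-failure, the second being lost, among others, after quantile normalization (limma adjusted p = 0.0914). PNCK, a kinase of the CaMK1 group, fell from 8.78 ± 1.13 to 3.03 ± 0.812 RPKM in PH-healthy (limma adjusted p = 0.00769) and 3.83 ± 3.18 RPKM in PH-failure (limma adjusted p = 0.0113). The PNCK calls were kept in 18 and 17 of 19 settings, the second being lost, among others, without PH-failure replicate 3 (limma adjusted p = 0.0702). CAMK2N1, an inhibitor of CaMKII, was at 4.69 ± 1.11, 2.98 ± 0.722 and 3.70 ± 1.75 RPKM and did not pass the test. In PH-healthy CAMK2N1 was called lower after quantile normalization (-0.80, limma adjusted p = 0.0253), median-ratio scaling (-0.68, 0.0395) and with limma-voom (-0.88, 0.0442).

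In the branch of class II histone deacetylases, protein kinase D and MEF2 factors (13 listed, 12 tested), 6 rose in each PH group and none fell. Of all tested genes, 28% rose and 5.79% fell in PH-failure, and 26.6% rose and 8.15% fell in PH-healthy. After quantile normalization 1 of the 12 was called in PH-failure, where 9.96% of all tested genes were higher and 12.5% lower. In PH-healthy 2 were called after it, where 12.5% of all tested genes were higher and 14.3% lower. MEF2C, a muscle transcription factor, rose from 4.09 ± 1.29 to 10.4 ± 1.97 RPKM in PH-healthy (limma adjusted p = 0.00173) and 8.30 ± 0.919 RPKM in PH-failure (limma adjusted p = 0.00761), in all 19 settings. The others were MEF2D, HDAC7, HDAC9, CAMTA1 and CAMTA2, which rose by 0.48 to 0.74 in PH-healthy and 0.50 to 0.65 in PH-failure. Of these, CAMTA1 kept its call in 4 and 5 of 19 settings and MEF2D in 6 and 7. In PH-failure HDAC7, HDAC9 and CAMTA2 lost their calls after quantile normalization, after median-ratio scaling and with limma-voom.

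Among calcium entry and release channels (14 listed, 11 tested), 6 rose in each PH group and none fell. Of all tested genes, 28% rose and 5.79% fell in PH-failure, and 26.6% rose and 8.15% fell in PH-healthy. STIM2 (0.79 in PH-healthy and 0.63 in PH-failure), ORAI1 (0.65 and 0.51), TRPC1 (0.42 and 0.48) and ITPR1 (0.64 and 0.80) rose in both groups. These are sensors and pores of store-operated and receptor-operated calcium entry, and ITPR1 releases calcium from stores. The calls of STIM2 were kept in 19 and 18 of 19 settings in PH-healthy and PH-failure, those of ORAI1 in 18 and 13, of TRPC1 in 12 and 15 and of ITPR1 in 7 and 16. ORAI3 (0.67, limma adjusted p = 0.0077) and STIM1 (0.48, limma adjusted p = 0.0166) rose in PH-failure alone, calls kept in 17 and 14 of 19. ITPR2 rose in PH-healthy alone, from 1.64 ± 0.526 to 2.83 ± 0.309 RPKM, a call kept in 5 of 19. After quantile normalization none of the list was called in PH-failure, where 9.96% of all tested genes were higher and 12.5% lower. In PH-healthy 2 were called higher after it, STIM2 and TRPC6, where 12.5% of all tested genes were higher and 14.3% lower. TRPC6, a channel whose gene is an NFAT target in mice, was at 0.739 ± 0.361 RPKM in low PAP, 2.86 ± 1.03 in PH-healthy and 1.29 ± 0.701 in PH-failure. It rose by 1.14 in PH-healthy (limma adjusted p = 0.00512), and in PH-failure its value was 0.38 (limma adjusted p = 0.234). RYR2, the main release channel of heart muscle, was at 81.3 ± 24.8, 95.1 ± 19.7 and 81.3 ± 10.9 RPKM and did not pass the test.

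Among 7 genes used as reporters of hypertrophic signalling, 4 rose and none fell in PH-healthy, where 26.6% of all tested genes rose and 8.15% fell. In PH-failure 3 rose and 1 fell, where 28% of all tested genes rose and 5.79% fell. NPPB, which encodes B-type natriuretic peptide, rose from 19.9 ± 25.8 to 855 ± 14.6 RPKM in PH-healthy and 865 ± 732 RPKM in PH-failure (limma adjusted p = 0.000536 and 0.00114). ACTA1, skeletal muscle actin, rose by 4.36 and 3.31 (limma adjusted p = 0.00532 and 0.0186). The ACTA1 calls were kept in 19 and 17 of 19 settings, the second being lost, among others, without PH-failure replicate 2 (limma adjusted p = 0.0774). ANKRD1, a stress-responsive ankyrin repeat protein of heart muscle, rose by 0.97 and 0.90 (limma adjusted p = 0.0248 and 0.0345), calls kept in 14 and 11 of 19 settings. MYH7, the slow myosin heavy chain, rose by 0.50 in PH-healthy (limma adjusted p = 0.0460), a call kept in 5 of 19. NPPA, the atrial peptide, was at 33.6 ± 33.9, 65.2 ± 17.7 and 96.3 ± 130 RPKM and did not pass the test. PLN, the inhibitor of the sarcoplasmic calcium pump and a CaMKII substrate, fell from 675 ± 151 to 411 ± 54.7 RPKM in PH-failure (limma adjusted p = 0.0173). That call was kept in 16 of 19 settings and lost, among others, without PH-failure replicate 3 and after quantile normalization. In PH-healthy PLN was at -0.44 and did not pass the test (limma adjusted p = 0.0813), but was called lower after median-ratio scaling (0.0264) and with limma-voom (0.0245). In PH-failure against PH-healthy none of the 63 genes was called and 2 had an unadjusted p under 0.05 (limma), as did 2.71% of all tested genes.

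**Figure D4:**
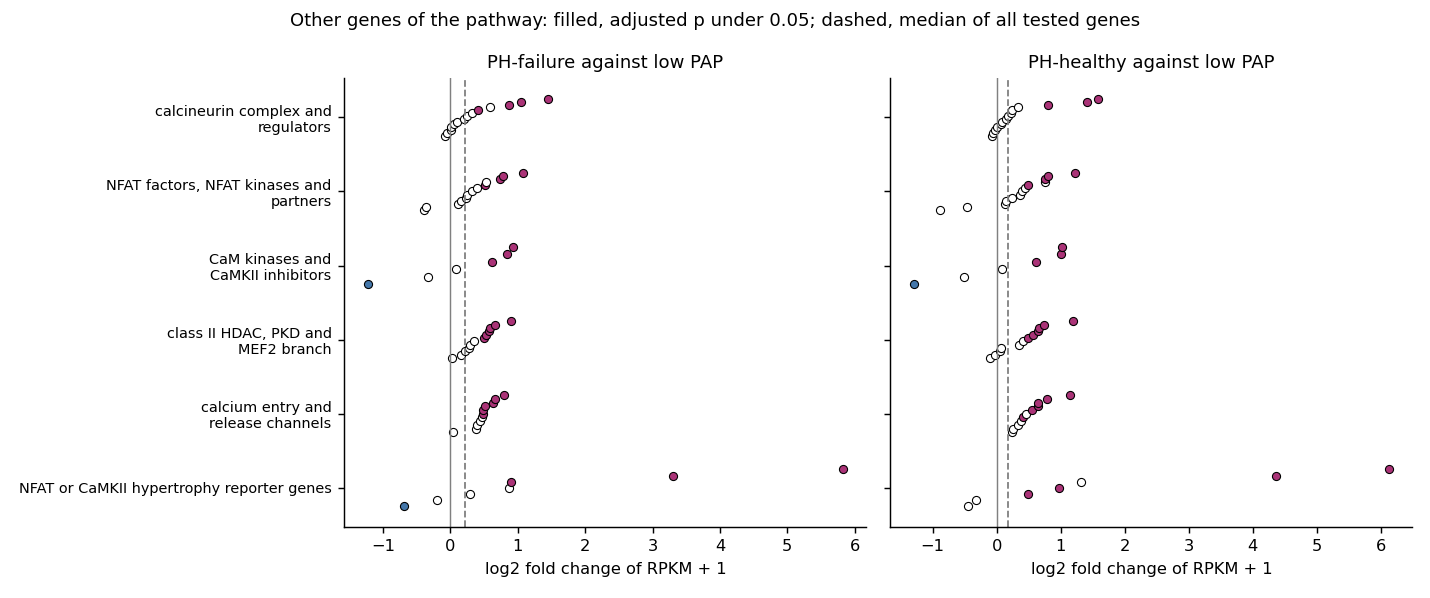
Log2 fold change of RPKM + 1 (horizontal axis) of the 63 other tested genes in 6 lists, for PH-failure and PH-healthy against low PAP; filled points passed the adjusted p of 0.05 (red higher, blue lower), dashed lines are the medians of all tested genes, and the height within a list only spreads the points. Of the 63 genes, 26 rose in each comparison, and NPPB lies farthest right in both panels.

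Genes with the most similar pattern were found by Pearson's r of log2(RPKM + 1) over the 12 libraries, given as a description because the libraries share the group differences. For RCAN1 these were EML4 (r = 0.97), SYNRG (0.97) and FBXO38 (0.97). For RCAN2 they were ELK1 (r = 0.98), WFS1 (0.98) and NACC1 (0.97), so the 2 paralogs had no gene in common among their 3. For PPP3CA they were CANX (0.99), TTC17 (0.97) and SRGAP2 (0.97), for PPP3R1 RCOR3 (0.99), UBAP2L (0.98) and IDS (0.98), and for NFATC3 ZBTB18 (0.99), MKL2 (0.99) and HIPK3 (0.99). For CAMK2G they were PCDHGA8, INTS3 and NOTCH3 (0.98 each), while the genes nearest to PPP3CB, NFATC4 and CAMK2D were MFN1 (0.93), ARID3B (0.94) and BAG2 (0.85). Between the 9 tested genes themselves, PPP3R1 and RCAN2 were the most alike (r = 0.94, and 0.82 for deviations from the group means). RCAN1 and RCAN2 had r = 0.74 over the 12 libraries and -0.07 for deviations from the group means.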

How the data were processed

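Per the file headers, the table the authors deposited holds RPKM per gene and library, beside Ensembl identifiers, symbols and positions. The sources used here name no aligner, counting method, strand setting or genome build. Also deposited by the authors are mean RPKM at high and low PAP, a signed fold score between them, a p-value and a false discovery rate, quoted as theirs alone.

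Here log2(RPKM + 1) was modelled with limma 3.58.1 (R 4.3.3, statmod 1.5.0) as 3 groups without covariates, with trended and robust variance moderation, after a filter of at least 1 RPKM in at least 3 libraries. Adjusted p-values are over all 11374 tested genes and intervals are at 95%. Reads behind the RPKM were recovered from its steps, and all 11374 genes came out whole in every library within 0.05 reads. Mapped reads were 14739237 to 31090198, of which 85.6 to 88.2% fell in exons, and limit counting error only. The model and the recovery were tested on simulated data. In all, 19 alternative settings were run. One of them, limma-voom on the recovered reads with median-ratio factors, was chosen after seeing the data, in place of the planned fit with TMM factors.

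The genes, lists and tests were chosen with earlier results of these data known. Named genes are the 10 genes, up to 6 called genes a list and comparison by smallest p, the 3 genes most like each, and NPPB. MYOZ2, CAMK2N1, JUN, RYR2 and NPPA were named after their values were seen, as genes that did not pass. Listed genes not matched by symbol, PPP3R2 and SIK1 among them, are not analysed here. PLIN1 and LEP were matched through older symbols in a RefSeq table. Plots and tables used matplotlib 3.10.9, pandas 2.3.3 and numpy 2.4.6 under Python 3.11.15.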

Additional observations from a re-analysis of the deposited data

How the results depend on the processing

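Over 19 alternatives (12 of them leaving out 1 library) and the values within each library series, 756 results of single genes were scored. Of these, 675 were scored as the same, 44 lost a call, 2 gained one, 4 moved by more than the spread and 31 turned direction. The values within a series had no test, and their turns of direction are not among the 31. Such turns were seen for CAMK2D in PH-failure (0.053 in series 55) and for all PH (-0.065 in series 56). Between the PH groups they were seen for PPP3CA (0.043, series 55), PPP3R1 (0.080, series 56) and NFATC3 (0.28, series 55). RCAN1, RCAN2 and CAMK2G kept their calls in all 19 in PH-failure, PH-healthy and all PH against low PAP. In PH-failure the 6 called genes became 3 with quantile normalization, median-ratio scaling or limma-voom. The 28 other pathway genes called in PH-failure became 11 with quantile normalization, 16 with median-ratio scaling, 17 with limma-voom and 13 with the replicate block. Over all 11374 tested genes the 3848 calls in PH-failure became 2551, 3211, 3347 and 1379 in the same settings. The 27 in PH-healthy became 15 with quantile normalization and 17 with the block, and the 33 for all PH became 20 with quantile normalization. Over all tested genes the 3951 calls in PH-healthy became 3046 and 1834, and the 5421 for all PH became 4335. Leaving out 1 library gave 4 to 6 of the 10 genes and 13 to 31 other genes in PH-failure (13 without PH-failure replicate 3), 4 to 6 and 18 to 31 in PH-healthy, 6 to 7 and 30 to 40 for all PH, and 0 and 0 between the PH groups. Over all tested genes it gave 1540 to 4669 in PH-failure (1540 without PH-failure replicate 3) and 1890 to 4643 in PH-healthy. For all PH it gave 4422 to 5977 of all tested genes, and between the PH groups 0 to 4. The planned limma-voom fit with TMM factors is not given here, because the tool for those factors is meant for deposited counts and the deposited unit is RPKM. Median-ratio factors took its place after the TMM version had been seen.

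The replicate numbers do not pair animals (9 same-numbered pairs, correlations of deviations -0.26 to 0.19, 2 over 0.1). With the replicate block 5, 5, 6 and 0 of the 10 genes were called in PH-failure, PH-healthy, all PH and between the PH groups. Of all 11374 tested genes, 1379, 1834, 3027 and 0 were called with it.

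Direction turned in 31 values of genes that did not pass the test. PPP3CB in PH-failure was -0.12 (quantile), -0.20 (median-ratio) and -0.20 (voom), and -0.11 to 0.19 with 1 library left out. In PH-healthy PPP3CB was -0.030 (median-ratio) and -0.031 (voom), and for all PH it was -0.024, -0.12 and -0.11 (quantile, median-ratio, voom). CAMK2D in PH-failure was 0.026 with the block and -0.16 to 0.064 with 1 library left out. In PH-healthy CAMK2D was -0.11 with median-ratio scaling and with voom, and for all PH it was -0.22 and -0.23, and -0.030 to 0.088 with 1 library left out. NFATC4 with quantile normalization was -0.047 in PH-healthy and -0.015 for all PH. Between the PH groups, with 1 library left out, PPP3CB ran from -0.29 to 0.0079, PPP3R1 from -0.085 to 0.016, RCAN1 from -0.00087 to 0.71, NFATC3 from -0.16 to 0.14 and NFATC4 from -0.0071 to 0.30. There NFATC3 was 0.027 with the library series as a term. The cause was not tested. NFATC1 and NFATC4 had the fewest reads, with medians of 70 and 87.5 a library.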
